A study of Homo sapiens with 9 samples.

Results

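Histone H3 trimethylated at lysine 4 (H3K4me3), a mark of active promoters, was examined at 8 genes that hold fetal globin in check or act on its repression: BCL11A, ZBTB7A, MYB, HBS1L, SOX6, LIN28B, CHD4 and MBD2. The 8 genes were taken by name from a written list, out of 20175 protein-coding genes in the annotation. For each gene, the largest signal among the called peaks within 1 kb of any annotated transcript start was taken in each library, and the same was done within 5 kb. The cells were HEL, an established human erythroleukemia line cultured in RPMI with serum, and the mark was mapped by CUT&RUN, in which an antibody tethers a nuclease to the mark so that the bound fragments are released and sequenced. There were 9 libraries in 4 groups: 3 carried a non-targeting CRISPR guide (NTC), and 2 each came from a CRISPR knockout of METTL3 (METTL3-KO), METTL14 (METTL14-KO) or WTAP (WTAP-KO). METTL3, METTL14 and WTAP are subunits of the complex that writes m6A onto RNA, and the comparison asks whether H3K4me3 at promoters depends on this complex. Guides were delivered by lentivirus into the line, and no separate cultures are named for the libraries of a group, so that p-values measure only the spread between these libraries.

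In the switch from fetal to adult hemoglobin, BCL11A and ZBTB7A bind the gamma-globin promoters and silence them. Both recruit the NuRD complex, of which CHD4 is the remodelling motor and MBD2 the subunit that reads methylated DNA. SOX6 acts with BCL11A, MYB promotes progenitor growth and its partial loss raises fetal hemoglobin, and LIN28B, an RNA-binding protein of fetal progenitors, blocks let-7 maturation and lowers BCL11A. HBS1L, a ribosome rescue factor, shares an intergenic interval with MYB that carries common variants linked to fetal hemoglobin levels.

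The libraries differed in ways that touch every result below. NTC libraries held 21724 to 21941 peaks, METTL3-KO libraries 9205 and 9369, METTL14-KO libraries 3169 and 5286, and WTAP-KO libraries 3160 and 3673. Each deposited signal is in spike-in calibrated units and adds up over the peak, so that wide peaks have larger values. The lowest value in any list was 30.1, the lists give no fragment totals, and depth is therefore unknown. A gene with no peak had none in the list of that library, which does not show that the mark was absent there. Fewer cells carrying the mark and less mark per cell cannot be told apart. The widest peak of any list measured 2000 bp, and peaks above 1800 bp made up 4.14% to 4.49% of the NTC lists and 0.285% to 1.24% of the KO lists. Of NTC peaks 1900 to 2000 bp wide, 33.2% had no overlapping peak in another NTC library, against 5.44% of those 500 to 999 bp wide. Promoters of the knockout targets were not a check on the guides, since a frameshift leaves a promoter in place. METTL3, for instance, had signals of 6514.9 to 10067.4 in NTC, 1094.9 and 915.2 in METTL3-KO, and no peak in WTAP-KO. Of 10 erythroid marker promoters, 6 had a peak in all 3 NTC libraries and 1 in none, and of 6 megakaryocytic ones 3 had a peak in all and PF4 had none. CD3E, CD79A, ALB, EPCAM and RBFOX3, which mark other cell types, had no peak in any library, while CD8A and PAX5 had one in all 3 NTC libraries.

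**Figure D1:**
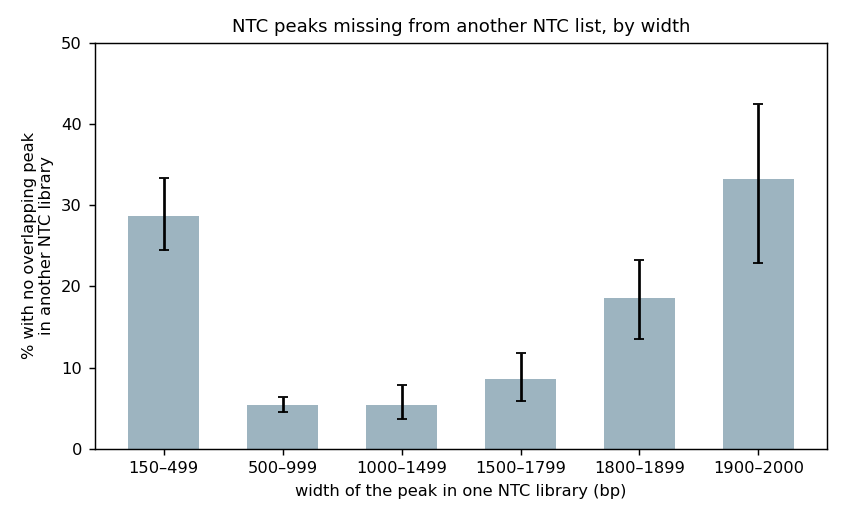
Share of peaks in one NTC library (y axis, percent) with no overlapping peak in another NTC library, by peak width in bp (x axis); bars pool the 6 ordered pairs of NTC libraries and whiskers span their lowest and highest values. The share was 5.44% at 500 to 999 bp and 33.2% at 1900 to 2000 bp.

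A promoter peak was called at fewer of the 8 regulators in the KO libraries than in the NTC libraries. The NTC libraries had 6, 6 and 5 of 8 regulators with a peak within 1 kb, the METTL3-KO libraries 4 and 3, the METTL14-KO libraries 5 and 3, and the WTAP-KO libraries 3 and 2. Only METTL14-KO replicate 1, with 5, reached the range of the NTC libraries. Among all protein-coding genes 46.8% to 47.9% had such a peak in NTC, 33.5% and 34.6% in METTL3-KO, 13.2% and 21.1% in METTL14-KO, and 11.4% and 12.9% in WTAP-KO. Within 5 kb the counts were 7, 7 and 5 in NTC, 5 and 4 in METTL3-KO, 5 and 4 in METTL14-KO, and 4 and 3 in WTAP-KO. The genes counted within 1 kb were not the same on both sides: HBS1L counted in 5 KO libraries and in none of NTC, and CHD4 and MBD2 in every NTC library and in none of KO. Such patterns were common among the 12480 coding genes with a peak in at least 1 library. Of these, 31.2% had a peak in all 3 NTC libraries and no KO library. Another 11.9% had one in no NTC library and at least 3 KO libraries.

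Signal at each gene was compared with limma on log2(signal + 30.1), fitted over the 12037 protein-coding genes with a peak in at least 2 libraries, with Benjamini-Hochberg adjustment over all of them. All 8 regulators entered the fit. In the 6 KO libraries against NTC, 5 regulators (BCL11A, ZBTB7A, MYB, CHD4 and MBD2) were lower and 1 (HBS1L) was higher at an adjusted p under 0.05. Of all genes tested, 73% were lower and 14.3% were higher, so that a lower call was the rule for the genome and the count of 5 of 8 is near that background. In METTL3-KO alone 3 regulators were lower and 0 higher, against 60.9% and 14% of all genes. In METTL14-KO 4 were lower and 2 higher, against 68.8% and 8.38%, and in WTAP-KO 4 were lower and 0 higher, against 69.7% and 6.81%. These comparisons share the 3 NTC libraries. Where a group has no peak, the fitted difference is set by the added 30.1 and is not a fold change.

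**Figure D2:**
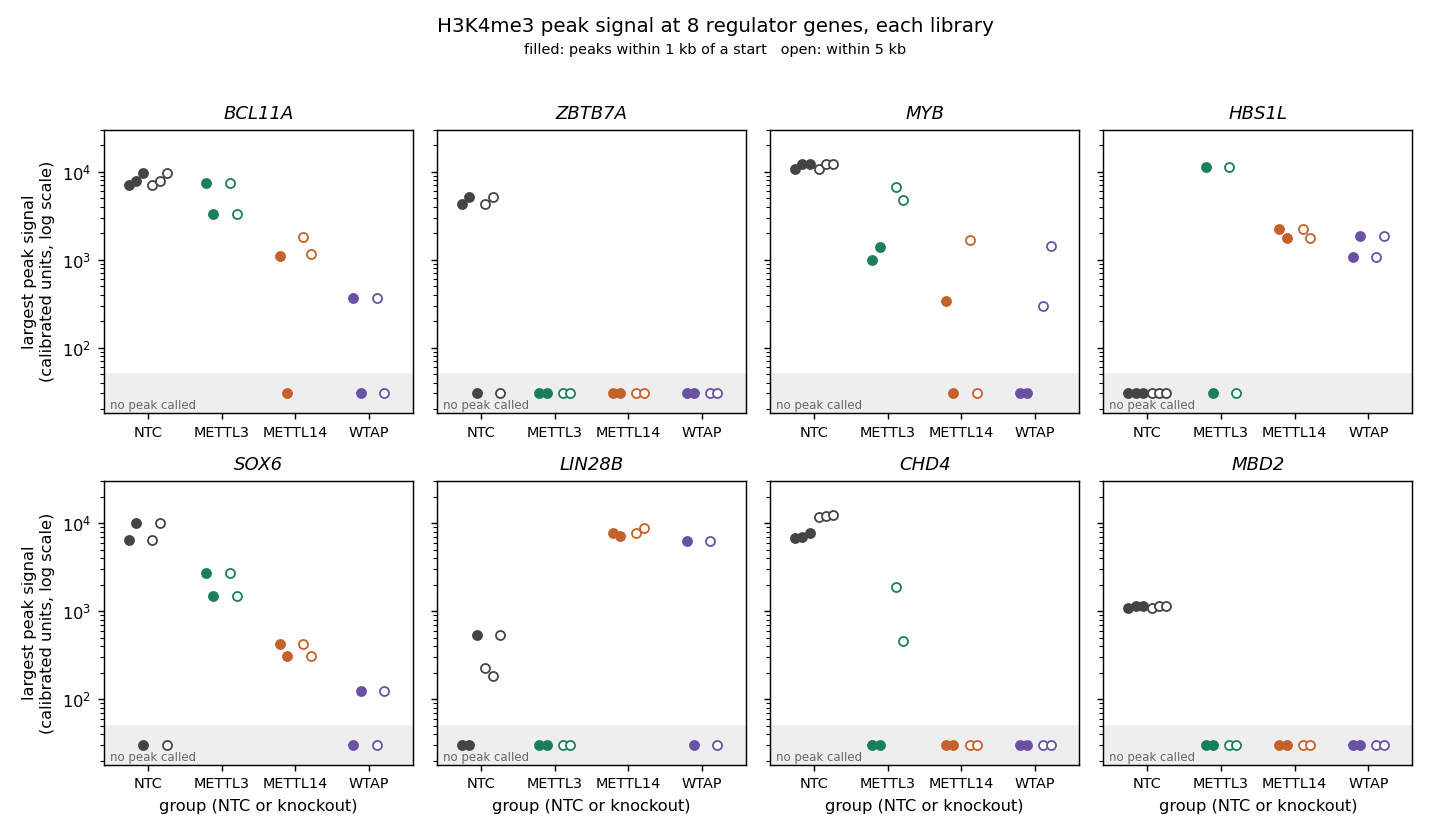
Largest H3K4me3 peak signal at each regulator (y axis, calibrated units, log scale) in each of the 9 libraries by group (x axis); filled points are peaks within 1 kb of a start, open points within 5 kb, and points in the grey band are libraries with no peak called. CHD4 and MBD2 had a peak within 1 kb in the 3 NTC libraries alone, while HBS1L had one in 5 of the 6 KO libraries and none in NTC. Of coding genes with a peak in any library, 31.2% had the pattern of CHD4 and MBD2. A peak in at least 3 KO libraries and none in NTC was found in 11.9%.

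BCL11A, the zinc finger repressor of the gamma-globin genes, had a promoter peak in both METTL3-KO libraries, though its largest lay elsewhere than in NTC, and fell in METTL14-KO and WTAP-KO. The gene lies on the minus strand of chromosome 2 (hg19, chr2:60677655-60781602), with 26 distinct starts among 27 transcripts. The largest signal within 1 kb of a start was 7009.7, 7811.8 and 9521.6 in the 3 NTC libraries. It was 7500.7 and 3329.8 in METTL3-KO, 1085.9 in METTL14-KO replicate 1 and 364.3 in WTAP-KO replicate 1, with no peak in replicate 2 of either group. METTL3-KO replicate 1 lay within the NTC range and every other KO library below it. The log2 difference from NTC was -0.68 ± 1.72 (SE) in METTL3-KO (limma, adjusted p = 0.738), -5.46 ± 1.72 in METTL14-KO (adjusted p = 0.0244) and -6.21 ± 1.72 in WTAP-KO (adjusted p = 0.0143). Over all KO libraries it was -4.12 ± 1.33 (adjusted p = 0.0251). This call was lost without any single NTC library (adjusted p = 0.065 to 0.0753) and without METTL3-KO replicate 2 (adjusted p = 0.0577). The METTL14-KO call was lost without any one NTC library or METTL14-KO replicate 2 (adjusted p = 0.0562 to 0.127), and the WTAP-KO call without WTAP-KO replicate 2 (adjusted p = 0.0972). Centring libraries on the 665 genes with a peak in all 9 ended both calls, with -3.20 in METTL14-KO (adjusted p = 0.227) and -3.33 in WTAP-KO (adjusted p = 0.21), and turned METTL3-KO to 1.09 (adjusted p = 0.696). The METTL14-KO call also ended with the 5 kb window (-2.46, adjusted p = 0.0735), in which both METTL14-KO libraries had a peak, at 1789.0 and 1163.8. METTL3-KO exceeded METTL14-KO and WTAP-KO by 5.15 ± 1.63, which missed the threshold (adjusted p = 0.0592) and passed it with the 5 kb window (3.65, adjusted p = 0.0382), without METTL14-KO replicate 1 (adjusted p = 0.00862) or without WTAP-KO replicate 1 (adjusted p = 0.0463).

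The position of the BCL11A peaks differed between the groups as much as their size. All NTC peaks within 5 kb of the outermost start lay inside the gene, the nearest ending 732 bp downstream of that start. Of the 17 KO peaks near BCL11A, 14 overlapped no NTC peak, and these lay in a stretch of 3437 bp, chr2:60781266-60784702, across and upstream of the outermost start. No NTC library had a peak anywhere in the 15809 bp around this stretch, between chr2:60780871 and chr2:60796679. At the starts inside the gene, where every NTC library had a peak, the METTL3-KO libraries had 3 peaks, of 2262.1 and 988.9 in replicate 1 and 1368.0 in replicate 2, and the METTL14-KO and WTAP-KO libraries none. The METTL3-KO signals of 7500.7 and 3329.8 belong to the upstream stretch, so that they were set against NTC peaks at another place. The stretch shared by the peaks of 4 KO libraries is shown because it is the upstream position at which a peak was called in all 3 KO groups; it is hg19 chr2:60782256-60782415, minus strand, outside annotated exons, 160 bases with 7 CpG dinucleotides in capitals and 55% G and C.

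BCL11A upstream: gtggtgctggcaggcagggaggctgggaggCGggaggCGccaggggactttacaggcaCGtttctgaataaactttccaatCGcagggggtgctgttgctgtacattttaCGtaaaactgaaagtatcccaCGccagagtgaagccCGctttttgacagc

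MYB, the progenitor transcription factor, was lower in every KO library. The gene is on the plus strand of chromosome 6 (chr6:135502446-135540311). Its largest signal within 1 kb of a start was 10576.5, 12091.6 and 12230.0 in NTC, 986.6 and 1389.4 in METTL3-KO, and 335.7 in METTL14-KO replicate 1. METTL14-KO replicate 2 and both WTAP-KO libraries had no peak there. The KO and NTC values did not overlap, and the METTL3-KO mean of 1188.0 was 10.2% of the NTC mean. The log2 difference was -3.28 ± 0.99 in METTL3-KO (limma, adjusted p = 0.0214), -6.79 ± 0.99 in METTL14-KO (adjusted p = 0.000709), -8.60 ± 0.99 in WTAP-KO (adjusted p = 0.000206) and -6.22 ± 0.76 over all KO libraries (adjusted p = 0.000268). METTL3-KO was higher than METTL14-KO and WTAP-KO by 4.42 ± 0.94 (adjusted p = 0.0146), the only regulator called in that comparison, in which 29.5% of all genes were higher and 0.582% lower. Leaving out either METTL3-KO library ended this call (adjusted p = 0.0668 and 0.069), and leaving out NTC replicate 2 or 3 or either METTL3-KO library ended that of METTL3-KO against NTC (adjusted p = 0.0535 to 0.0931). Centring libraries on the 665 genes with a peak in all 9 ended both calls (4.13, adjusted p = 0.0554, and -1.49, adjusted p = 0.321), counting only peaks at or above the NTC median left no difference between the KO groups, and the METTL3-KO call was also lost with 0.1 times the added 30.1 (adjusted p = 0.154) and with the sum of peaks (adjusted p = 0.0518).

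The window mattered at MYB, because the strongest KO peaks lay further inside the gene. METTL3-KO had peaks of 6684.5 and 4724.5 from 1927 to 3125 bp downstream of the start, METTL14-KO replicate 1 had one of 1671.9, and the WTAP-KO libraries had peaks of 294.7 and 1411.1 at the same place. No NTC library had a peak in the 5665 bp from chr6:135502101 to chr6:135507765 that hold them. The NTC peaks lay on either side, at positions -1918 to -346 bp relative to the start and from 5320 bp onward. With the 5 kb window the difference was -1.04 in METTL3-KO (adjusted p = 0.581), -4.09 in WTAP-KO (adjusted p = 0.0565) and -3.61 over all KO libraries (adjusted p = 0.0333), and METTL3-KO against the other KO groups gave 3.84 (adjusted p = 0.122). Thus the largest peak in METTL3-KO was about 49% of the NTC mean within 5 kb and 10.2% within 1 kb. The sequence below is the upstream stretch common to the peaks of 6 libraries, namely 3 NTC, 2 METTL3-KO and METTL14-KO replicate 1, and is shown as the position where peaks of both NTC and KO libraries lie; it is hg19 chr6:135501295-135501464, plus strand, outside annotated exons, 170 bases with 3 CpG in capitals and 40.6% G and C.

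MYB upstream: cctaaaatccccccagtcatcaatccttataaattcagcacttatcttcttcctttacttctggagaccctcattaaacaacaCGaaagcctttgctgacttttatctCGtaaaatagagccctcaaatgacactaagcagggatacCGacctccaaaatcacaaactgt

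**Figure D3:**
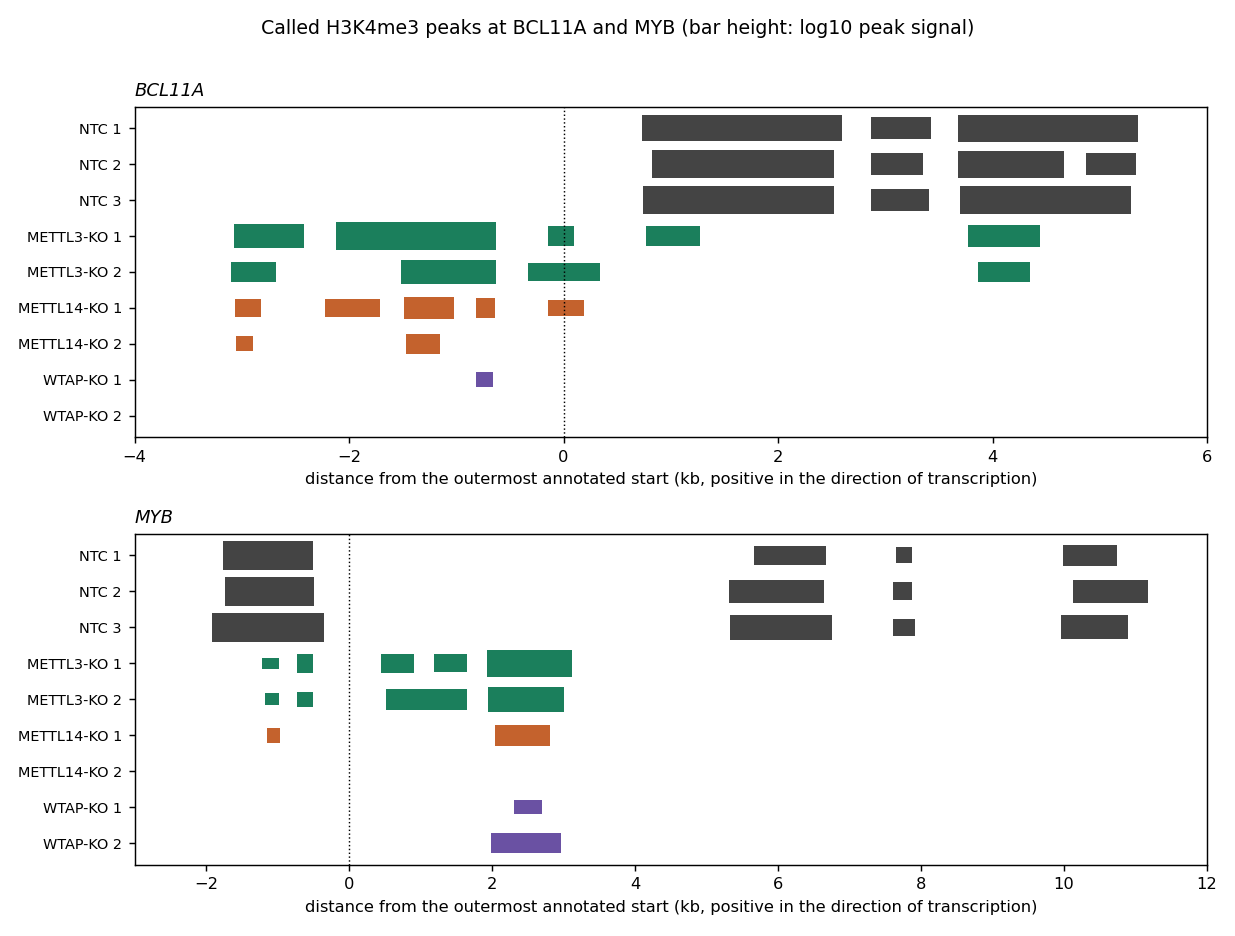
Called peaks at BCL11A and MYB in each library (rows), by distance in kb from the outermost annotated start (x axis, positive in the direction of transcription); bar length is the peak's extent and bar height grows with log10 of its signal. The NTC peaks leave a stretch at each start in which the KO libraries have peaks, 15809 bp long at BCL11A and 5665 bp at MYB.

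HBS1L, the neighbour of MYB, showed the opposite order, with a promoter peak in 5 of 6 KO libraries but none in NTC. The gene is on the minus strand (chr6:135281516-135424194) and the peaks lay at a cluster of starts at chr6:135375938 to chr6:135376022. METTL3-KO replicate 1 had a signal of 11346.8 in a peak 1966 bp wide, close to the 2000 bp limit of the lists, and replicate 2 had none. METTL14-KO had 2245.2 and 1752.5, and WTAP-KO had 1063.2 and 1868.1. METTL3-KO replicate 2, with no peak, was level with the NTC libraries. The log2 difference was 5.31 ± 1.74 over all KO libraries (limma, adjusted p = 0.0265), 6.06 ± 2.25 in METTL14-KO (adjusted p = 0.0449), 5.58 ± 2.25 in WTAP-KO (adjusted p = 0.0604) and 4.28 ± 2.25 in METTL3-KO (adjusted p = 0.125). Leaving out any one NTC library (adjusted p = 0.0726 to 0.0735), either METTL14-KO library (0.0548 and 0.0509) or WTAP-KO replicate 2 (0.0561) ended the call over all KO libraries, and the METTL14-KO call was lost without any one NTC, METTL14-KO or WTAP-KO library. Without METTL3-KO replicate 2, METTL3-KO was called (8.56, adjusted p = 1.14e-05), and without either METTL3-KO library WTAP-KO was called (adjusted p up to 1.47e-05).

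No NTC list held a peak in the 939374 bp around the HBS1L start, from chr6:134499808 to chr6:135439181. ENSG00000232876, a non-coding gene transcribed away from HBS1L, starts within 1 kb of the same peaks, and the lists carry no strand, so the peaks belong to either gene. The stretch next to the start that is common to the peaks of all 5 KO libraries is shown because it is the part of the common stretch in front of the start; it is hg19 chr6:135376023-135376159, minus strand, outside annotated exons, and holds 10 CpG in capitals in 137 bases, with 65.7% G and C.

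HBS1L promoter: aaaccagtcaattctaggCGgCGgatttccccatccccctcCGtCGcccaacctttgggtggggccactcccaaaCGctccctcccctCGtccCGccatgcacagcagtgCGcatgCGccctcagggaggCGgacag

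In the interval of 78251 bp between MYB and the outermost HBS1L start, only peaks lying wholly more than 1 kb from both ends were counted. All of these were NTC peaks. All 3 NTC libraries had a peak that ended 34472 to 34726 bp before the MYB start, with signals of 11808.4, 9067.1 and 9880.1, which is of the size of the MYB promoter peak. All 3 also had a weaker one near 62816 bp before it, at 850.2, 1029.5 and 1426.1, and NTC replicates 1 and 2 had further small ones about 32 to 33 kb before it. No KO library had a peak in this part of the interval. Nearer the MYB start, the METTL3-KO libraries had peaks of up to 869.2 and 366.3. METTL14-KO replicate 1 had 335.7 there. AHI1, the next coding gene beyond MYB, had 2953.9 and 3385.3 in METTL3-KO, 148.4 in NTC replicate 3 and no peak elsewhere, and ALDH8A1, beyond HBS1L, had no peak in any library.

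LIN28B, the fetal RNA-binding protein, had strong promoter peaks in METTL14-KO and in 1 WTAP-KO library. The gene is on the plus strand (chr6:105384491-105531207) with 3 starts. METTL14-KO had 7700.6 and 7195.2, and WTAP-KO replicate 1 had 6249.6, near the start at chr6:105404982. The 7195.2 and 6249.6 peaks covered that start, while the 7700.6 peak of METTL14-KO replicate 1 began 950 bp downstream of it. The peak of METTL14-KO replicate 1 next to the start had 4102.0. A peak of 8926.5 in METTL14-KO replicate 2 began 1034 bp downstream, just outside the 1 kb window. WTAP-KO replicate 2 and both METTL3-KO libraries lacked a peak in the 1 kb windows, and of the NTC libraries only replicate 3 had one, of 534.4, near a start about 16 kb upstream. Both METTL14-KO libraries were above all NTC libraries, and the WTAP-KO libraries disagreed with each other. The log2 difference was 6.55 ± 2.38 in METTL14-KO (limma, adjusted p = 0.0417), 2.44 ± 2.38 in WTAP-KO (adjusted p = 0.38), -1.41 ± 2.38 in METTL3-KO (adjusted p = 0.61) and 2.53 ± 1.84 over all KO libraries (adjusted p = 0.235). METTL3-KO was lower than METTL14-KO and WTAP-KO by 5.90, which did not pass (adjusted p = 0.106), but did without WTAP-KO replicate 2 (-7.83, adjusted p = 0.0128). WTAP-KO against NTC rested on its 2 unlike libraries, with 6.30 (adjusted p = 0.0209) without replicate 2 and -1.41 (adjusted p = 0.52) without replicate 1. The METTL14-KO call was lost without any one of NTC replicates 1 and 2, either METTL3-KO library or either METTL14-KO library (adjusted p = 0.067 to 0.134) and with the 5 kb window (4.74, adjusted p = 0.0729).

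The 6 KO peaks at LIN28B spanned 3453 bp, and no NTC peak lay in the 20860 bp around them. Inside the gene, all 3 NTC libraries had 1 strong peak that began 100287 to 100657 bp downstream of the start at chr6:105404982. The signals were 11010.8, 10127.9 and 17240.2 and the widths 1723, 1615 and 1993 bp. No KO library had a peak there. The 250 bases up to the end of the stretch common to the 3 KO libraries are shown, as the sequence in front of the start that carried the KO peaks; they are hg19 chr6:105404727-105404976, plus strand, outside annotated exons, with 6 CpG in capitals and 39.2% G and C.

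LIN28B promoter: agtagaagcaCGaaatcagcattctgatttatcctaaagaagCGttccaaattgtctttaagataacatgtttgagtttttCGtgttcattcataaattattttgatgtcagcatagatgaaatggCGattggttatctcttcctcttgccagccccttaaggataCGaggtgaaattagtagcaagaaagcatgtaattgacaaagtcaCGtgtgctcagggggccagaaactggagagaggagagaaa

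**Figure D4:**
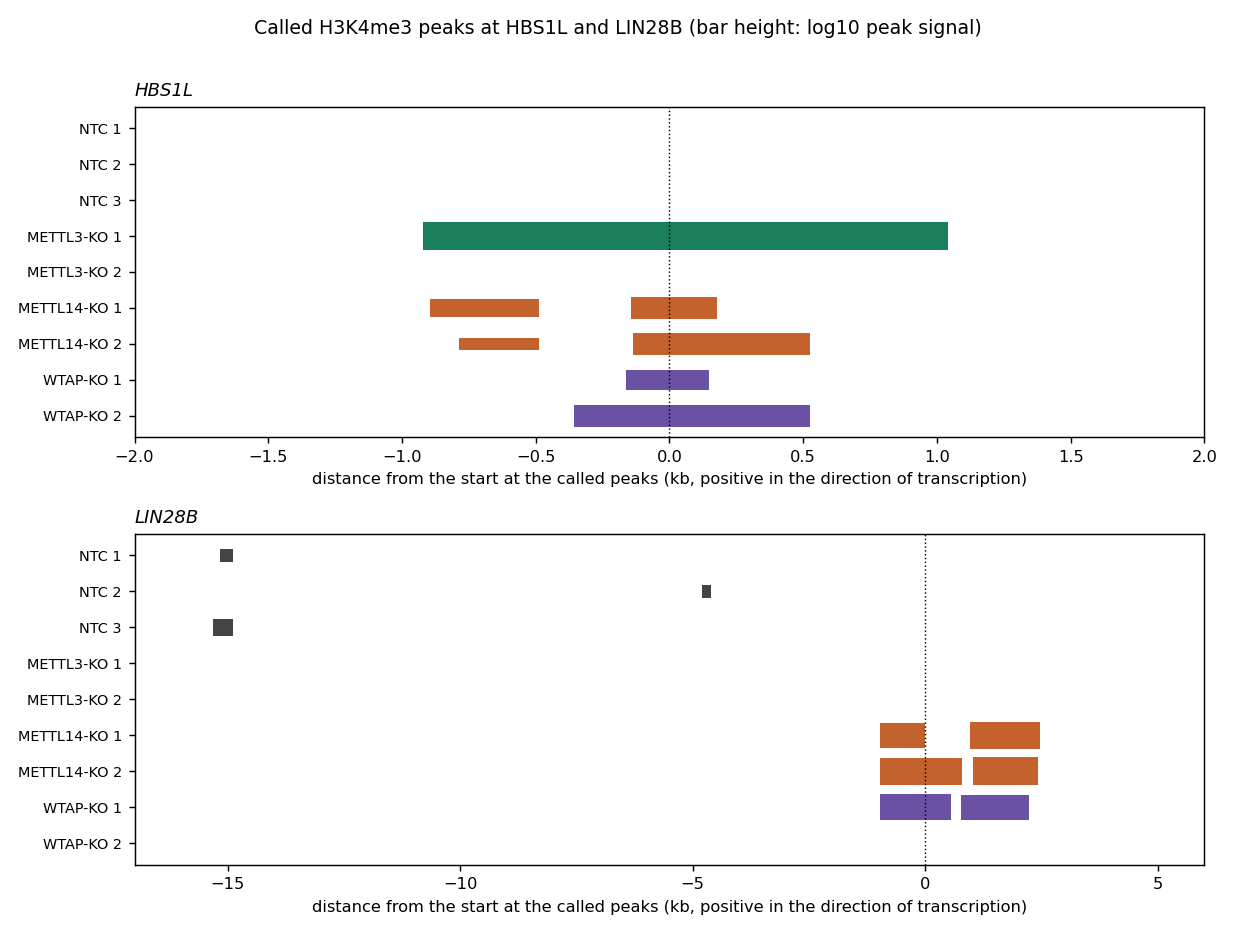
Called peaks at HBS1L and LIN28B in each library (rows), by distance in kb from the annotated start at the KO peaks (x axis, positive in the direction of transcription); bar length is the peak's extent and bar height grows with log10 of its signal. At both starts only KO libraries have peaks, 5 of them at HBS1L and 3 at LIN28B.

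CHD4, the remodelling motor of NuRD, had promoter peaks in NTC alone. The gene is on the minus strand of chromosome 12 (chr12:6679248-6723690). The largest signal within 1 kb of a start was 6868.9, 6979.4 and 7823.7 in NTC (7224 ± 522, SD, n = 3), and no KO library had a peak. The fitted difference was -7.91 ± 0.10 over all KO libraries (limma, adjusted p = 1.26e-08), a value set by the added 30.1 since no KO library had a peak, which also leaves the KO side without spread. NTC had 12 such peaks over the 3 libraries, along the starts in the first 9320 bp of the gene. Within 5 kb the largest NTC peak was one just past the far end of CHD4, at 11689.9 to 12486.9, which lies within 1 kb of the start of NOP2, a nucleolar methyltransferase gene. There the METTL3-KO libraries had 1878.4 and 458.1 and the other KO groups none.

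MBD2, the NuRD subunit that binds methylated DNA, had the weakest of the NTC promoter peaks seen in all 3 libraries, and also no KO peak. The gene is on the minus strand of chromosome 18 (chr18:51677976-51751039), and the NTC signals were 1095.0, 1150.8 and 1133.8 (1127 ± 28.6, SD, n = 3). The fitted difference over all KO libraries was -5.26 ± 0.09 (limma, adjusted p = 1.68e-08), with the same limit as at CHD4. The 250 bases in front of the start that all 3 NTC peaks hold are shown for comparison with the HBS1L and LIN28B promoters; they are hg19 chr18:51751040-51751289, minus strand, outside annotated exons, with 21 CpG in capitals and 66.4% G and C.

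MBD2 promoter: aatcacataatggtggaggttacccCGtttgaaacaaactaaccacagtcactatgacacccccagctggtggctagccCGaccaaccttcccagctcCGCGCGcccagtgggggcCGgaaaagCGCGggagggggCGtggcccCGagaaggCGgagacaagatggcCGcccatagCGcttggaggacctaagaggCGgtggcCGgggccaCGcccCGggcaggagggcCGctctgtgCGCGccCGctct

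ZBTB7A, the second direct repressor of the gamma-globin genes, had promoter peaks in 2 of 3 NTC libraries and in no KO library. The gene is on the minus strand of chromosome 19 (chr19:4043301-4066897), and the signals were 4303.8 and 5116.1 in NTC replicates 1 and 2, in peaks 1357 and 1152 bp wide upstream of the start, with no peak in replicate 3. NTC replicate 3 was thus level with the KO libraries. The fitted difference was -4.86 ± 1.70 over all KO libraries (limma, adjusted p = 0.0335) and -4.86 ± 2.19 in each KO group (adjusted p = 0.0855 to 0.0863). Leaving out any one KO library ended the call (adjusted p = 0.064 to 0.0671), and leaving out NTC replicate 3 gave -7.29 (adjusted p = 5.36e-08) and a call in each KO group. Without NTC replicate 1 or 2 the gene had a peak in fewer than 2 libraries and left the test.

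SOX6, the partner of BCL11A, was not called in any comparison. The gene covers 773144 bp on the minus strand of chromosome 11 (chr11:15987995-16761138) with 17 starts. The largest signals were 6453.0 and 10090.0 in NTC replicates 1 and 2 with no peak within 1 kb in replicate 3, then 2688.2 and 1493.0 in METTL3-KO, 429.4 and 312.1 in METTL14-KO and 123.0 in WTAP-KO replicate 2. The 5 KO values were below both NTC values and above the NTC library without a peak. The difference over all KO libraries was -1.72 ± 1.96 (limma, adjusted p = 0.433) with NTC replicate 3 and -4.42 ± 0.72 without it (adjusted p = 0.00269), when METTL14-KO (adjusted p = 0.00677) and WTAP-KO (adjusted p = 0.00106) were called too. It was 0.04 (adjusted p = 0.982) when libraries were centred on the 665 genes with a peak in all 9. The signal came from 2 promoters, one 132833 to 134180 bp inside the gene and the outermost one, whose peaks lie within 1 kb of the start of C11orf58 as well, so that signal there belongs to either gene. With only starts of coding transcripts counted, SOX6 had a peak in fewer than 2 libraries and left the test. The signal given here thus lay mostly at starts of SOX6 transcripts not annotated as coding. At the outermost promoter NTC replicate 2 had a peak 1967 bp wide, NTC replicates 1 and 3 had none, and 5 KO libraries had one.

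**Figure D5:**
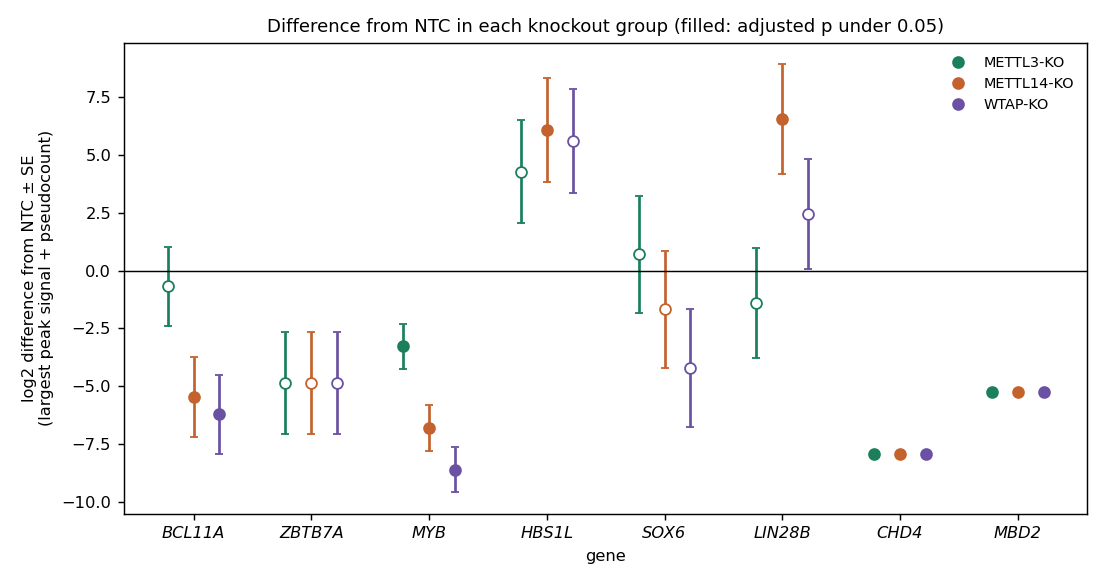
Log2 difference from NTC in the largest peak signal plus 30.1 (y axis, with SE) for each regulator (x axis) in each of the 3 KO groups; filled points passed an adjusted p of 0.05 in limma and open points did not. CHD4 and MBD2 are lower by the same value in each group, -7.91 and -5.26, because no KO library had a peak.

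Near the 8 regulators, KO peaks often lay where no NTC peak was called. Of the 54 KO peaks within 5 kb of their starts, 35 (64.8%) overlapped no NTC peak, against 46.4% of all 33862 KO peaks. The latter were taken wherever in the genome they lay, so the sets are unlike. No share was taken for KO peaks within 5 kb of the starts of other genes. By group the shares at the regulators were 46.2% in METTL3-KO, 80% in METTL14-KO and 87.5% in WTAP-KO, against 40.3%, 50.4% and 58.1% of all peaks. These 35 peaks lay at 4 genes, 14 at BCL11A, 8 at MYB, 7 at HBS1L and 6 at LIN28B, and at SOX6 and CHD4 all KO peaks overlapped NTC peaks. Neighbouring peaks of a gene and the same place in several libraries are not independent, and no test was made. The NTC peaks beside the gaps were wide, up to 1870 bp at BCL11A and 1573 bp at MYB, and whether the 2000 bp limit on the lists had a part in the missing NTC peaks was not tested.

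The regulators' promoters as RefSeq gives them (GRCh38.p14, 250 bases before to 50 after the start) were rich in CpG at some starts and poor at others. All 8 genes matched, with 18 promoters among 35116 in the table. CpG per 300 bases ran from 0 at 2 SOX6 starts to 39 at a ZBTB7A start, against a median of 14. HBS1L had 26 at its only promoter in the table. LIN28B had 37 at its upstream promoter and 8 at its downstream one, the one next to the KO peaks. TGACCA, the motif bound by BCL11A, was found on either strand in 1 of the 18 promoters, at BCL11A itself, and in 10.7% of all promoters in the table, which is a description of the letters and not of binding.

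The genes around the regulators were set beside them by list. Of 13 NuRD partners of CHD4 and MBD2, 11 were tested, with 8 lower, 1 higher and a median difference of -5.06 over all KO libraries. Over all genes tested, 73% were lower and 14.3% higher with a median of -5.30, which is the background for each list here. MTA3 (8931.3, 9111.4 and 11926.2 in NTC, no KO peak; -8.37, limma adjusted p = 1.51e-08) and GATAD2A (8593.4 to 11538.0 in NTC, 2266.7 and 264.8 in METTL3-KO; -6.72, adjusted p = 6.5e-05) had the highest NTC signals. RBBP4, a histone chaperone of NuRD, had no NTC peak and peaks in all 6 KO libraries, from 507.2 to 5437.6 (adjusted p = 7.48e-06).

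Of 22 other repressors and corepressors linked to the gamma-globin genes, all tested, 17 were lower and 1 higher, with a median of -6.22, and the share of lower calls was near the 73% of all genes. EHMT2, a histone H3 lysine methyltransferase, was the strongest in NTC (32003.2 to 36209.2) and kept a peak in all 6 KO libraries (3961.2 to 12832.3; -2.37 ± 0.17, limma adjusted p = 1.45e-05). SPOP, a ubiquitin ligase adaptor, went from 14283.7 to 18815.9 in NTC to at most 1920.3 in KO libraries (-6.92, adjusted p = 0.000458). NR2F2, an orphan receptor known as COUP-TFII, had 5030.3 to 10180.4 in NTC and 10115.6 to 17465.8 in 5 KO libraries with 1459.2 in METTL3-KO replicate 1, and was not called (0.34 ± 0.75, adjusted p = 0.682).

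The LIN28B and let-7 list moved both ways. Of its 10 genes 8 were tested, with 4 lower, 4 higher and a median of -0.72, against 73% lower, 14.3% higher and -5.30 over all genes. DROSHA (4816.0 to 8108.0 in NTC) and DICER1 (3770.7 to 5755.9), the nucleases of miRNA maturation, had no KO peak and were lower by -7.71 and -7.37 (limma adjusted p = 4.89e-08 and 4.25e-08). IGF2BP2, an RNA-binding protein and let-7 target, was higher, with at most 1138.4 in NTC and 2386.8 to 13456.5 in the KO libraries (5.23 ± 1.16, adjusted p = 0.00498). TUT4, which tails the let-7 precursor bound by LIN28 proteins, had no NTC peak and 2180.5 to 11205.4 in all 6 KO libraries (adjusted p = 9.46e-07).

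Among 10 erythroid activators that bind the same loci, 6 were lower, 3 higher and the median was -3.54, against -5.30 over all genes. LDB1, a bridging factor of the GATA1 complex, had 11665.9 to 22321.7 in NTC and at most 1634.3 in KO libraries (-6.73, limma adjusted p = 0.000274). NFYA, a subunit of the factor that binds CCAAT boxes, had no NTC peak and 4441.1 to 15333.9 in all 6 KO libraries (adjusted p = 3.01e-07), whereas its partner NFYB had 4330.9 to 5463.3 in NTC and no KO peak (-7.35, adjusted p = 1.32e-08). RUNX1 was higher, from 622.4 to 966.0 in NTC to 1267.8 to 7726.1 in KO (2.40 ± 0.52, adjusted p = 0.00442). Of 8 globin genes 3 were tested, with 1 lower, HBE1 (463.2 to 1449.1 in NTC, no KO peak; -5.06, adjusted p = 1.71e-05). The fetal gene HBG2 had 96.6 in NTC replicate 2 and 1033.2 in METTL3-KO replicate 1 and no peak elsewhere (0.17 ± 1.15, adjusted p = 0.899), HBD gave -1.44 ± 1.09 (adjusted p = 0.25), and HBG1 and HBG2 are near-identical copies. Of the 2 genes beside MYB and HBS1L, AHI1 was tested and not called over all KO libraries (1.39 ± 0.61, adjusted p = 0.0682), but was higher in METTL3-KO (5.87, adjusted p = 0.000516).

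By root mean square distance over the 9 log2 values, the coding gene nearest to each regulator was RBM8A for BCL11A (0.527), CXCL2 for ZBTB7A (0.05), EXOC7 for MYB (0.132), CDK8 for HBS1L (0.35), BLVRA for SOX6 (0.385), LRRIQ4 for LIN28B (1.425), and ZKSCAN1 for MBD2 (0.038). For CHD4 it was ENSG00000285238, at a distance of 0 because it shares CHD4 starts, and then BATF2 (0.021). The next nearest were CCDC107 and ADORA2B for ZBTB7A, EMC9 and CHCHD5 for MYB, ZNF436 and OGA for HBS1L, HAVCR2 and MED7 for SOX6, ARHGAP11B for LIN28B, ANP32B for CHD4, and TRUB1 and BSCL2 for MBD2. LIN28B stood furthest from its nearest gene, with peaks in 3 KO libraries of 2 groups and in none of METTL3-KO.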

How the data were processed

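H3K4me3 CUT&RUN libraries of HEL cells (3 NTC, 2 per KO group) were used. The authors aligned paired reads with Bowtie to hg19 and to sacCer3 for the yeast spike-in, removed duplicates with Picard, calibrated each library by the spike-in and called peaks per library by height; versions are not given in the sources used here. The deposited lists give a calibrated signal per peak rather than counts, so count models were left out. Deposited starts were assumed to count from 0 and are printed from 1. All 25 chromosome names matched the hg19 reference and 0 peaks ran past a chromosome end.

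Peaks were assigned to GENCODE release 44 starts lifted to hg19 (1 kb, and 5 kb beside it). The largest signal per library was compared with limma 3.58.1 (R 4.3.3, eBayes with trend) on log2(signal + 30.1), the smallest signal, in protein-coding genes with a peak in at least 2 libraries, with 9 libraries and 4 groups in 1 model and two-sided p-values adjusted by Benjamini-Hochberg over 12037 genes. The fit was tested on simulated data. This scale understates changes of weak peaks. Members, companion lists and alternatives were chosen with earlier results of these data known, so a list is described by its counts and median without a test of its own. From each companion list, the 2 genes highest in NTC and the 2 highest in KO were named, and for each member the 3 nearest genes by pattern. Alternatives were the pseudocount (0.1 and 10 times), the filter, the window, the sum of peaks, starts of coding transcripts, peaks at or above the NTC median of 2095.2, centring, scaling by the lowest signal, the groups fitted, the trend, the replicate block and leaving out each library; leaving out genes with a peak wider than 1800 bp was added after seeing the data. The replicate numbers in the labels were not used for pairing: over 12 same-numbered pairs of libraries, deviations from group means correlated at -0.058 to 0.095. With 2 libraries per KO group the deviations are equal and opposite, so KO pairs gave the same value for replicates 1 and 2. No batch is given in the labels. Tables and plots were made with Python 3.11.15 (pandas 2.3.3, matplotlib 3.10.9).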

Additional observations from a re-analysis of the deposited data

Results flagged for a closer look

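The METTL3-KO libraries differed from the METTL14-KO and WTAP-KO libraries at 3622 coding genes (limma, adjusted p under 0.05), a test of the difference itself. Among the regulators this was MYB, higher in METTL3-KO by 4.42 on the log2 scale (limma, adjusted p = 0.0146). The MYB call was lost with the 5 kb window (3.84, adjusted p = 0.122), with centring (4.13, adjusted p = 0.0554), without either METTL3-KO library (adjusted p = 0.0668 and 0.069) and with peaks at or above the NTC median, which left a difference of 0. Among the genes named from the companion lists, higher values in METTL3-KO were found for RBBP4 (2.01), GATAD2A (4.77), EHMT2 (1.04), TUT4 (1.68), AHI1 (6.73) and LDB1 (4.60), with limma adjusted p from 0.000758 to 0.0172. At GATAD2A and AHI1 the other KO groups had no peak, so that the size is set by the pseudocount. At LDB1 and MYB only METTL14-KO replicate 1 of those groups had a peak, of 388.5 and 335.7. The size at these genes thus depends in part on the pseudocount. Of the 3622 genes 3552 were higher in METTL3-KO, and the METTL3-KO lists held more peaks (9205 and 9369, against 3160 to 5286). No group had 4 or more libraries, so single libraries were not screened as outliers.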

How the results depend on the processing

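Over the comparisons and the counts of regulators, 117 of 135 values under the alternatives run kept their side or size, and 18 moved. With a peak required in at least 4 libraries the called genes were 5675 (all KO), 4532 (METTL3-KO), 5404 (METTL14-KO) and 5319 (WTAP-KO), from 10499, 9024, 9290 and 9206, since 6713 genes were then tested. With peaks at or above the NTC median they were 6127 (METTL14-KO), 6099 (WTAP-KO) and 888 (METTL3-KO against the other KO groups, from 3622), with 8692 genes tested. Centring on the 665 genes with a peak in all 9 libraries gave 2280 for METTL3-KO against the other KO groups. It subtracted offsets of 1.82 to 2.06 from NTC libraries and of -2.07 to 0.47 from KO libraries on the log2 scale. The NTC libraries and METTL3-KO replicate 1 were thus lowered and the other KO libraries raised. Under this centring SOX6 changed sign over all KO libraries (0.042, adjusted p = 0.982), BCL11A was no longer called (-1.81, adjusted p = 0.351), and the cause was not tested. Leaving out each library gave 9551 to 10133 (all KO), 8079 to 9547 (METTL3-KO), 9101 to 9441 (METTL14-KO), 9013 to 9489 (WTAP-KO) and 2389 to 4378 (METTL3-KO against the other KO groups, lowest without METTL3-KO replicate 1).

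The mean number of regulators with a promoter peak was 5.67 in NTC, 3.5 in METTL3-KO, 4 in METTL14-KO and 2.5 in WTAP-KO. It was 6.33, 4.5, 4.5 and 3.5 with the 5 kb window, 4.33, 2, 1.5 and 0.5 with peaks at or above the NTC median, and 5, 2.5, 3 and 2 with starts of coding transcripts. Leaving out each library gave 5.5 to 6, 3 to 4, 3 to 5 and 2 to 3.

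Of 166 values for single regulators, 141 kept their direction and call. MYB kept the call over all KO libraries under the 22 alternatives run; so did CHD4 and MBD2, whose KO values within 1 kb are all 0, so that this says little about stability, and whose fitted size followed the pseudocount (-4.64 to -11.23 at CHD4). BCL11A lost its call also at 0.1 times the pseudocount (adjusted p = 0.069), ZBTB7A with no filter (0.0597), and HBS1L with peaks at or above the NTC median (2.47, adjusted p = 0.316). LIN28B was called without WTAP-KO replicate 2 (3.81, adjusted p = 0.0244). With the replicate block, which the data gave no ground for, the calls were 10002, 8756, 9329, 9414 and 2746, HBS1L lost its call (5.31, adjusted p = 0.0881) and SOX6 gained one (-4.42, adjusted p = 0.00677); MYB lost its METTL3-KO call (adjusted p = 0.0774) and that against the other KO groups (adjusted p = 0.0597). Leaving out genes with a peak wider than 1800 bp removed BCL11A, HBS1L and SOX6 from the test and changed no call among the other regulators. Only genes with a called wide peak are left out this way. Whether wide peaks are missing from the lists was not tested by it. Fragment depth is unknown, and 2 libraries per KO group limit the precision.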
